A study of Homo sapiens with 9 samples.

Results

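The replication-dependent histone genes were taken here by symbol: every probe set annotated to exactly 1 gene whose symbol begins with H1-, H2AC, H2BC, H3C or H4C and goes on with a number, pseudogenes left out. The rule found 110 probe sets of 64 genes, of 49293 probe sets and 18132 genes tested. There were 9 genes of the linker histone H1, 15 of H2A, 18 of H2B, 10 of H3 and 12 of H4. Of the 64 genes, 54 lie on chromosome 6, 6 on chromosome 1 and 4 elsewhere. The symbol rule also takes in linker histones of germ cells (H1-6, H1-7 and H1-8), germ-cell core histones (H2AC1 and H2BC1) and H1-10, a linker histone whose expression is not tied to DNA replication.

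Core histones H2A, H2B, H3 and H4 form the spool around which DNA is wound, and H1 binds the DNA that links the spools. Most of these genes sit in clusters, are switched on when DNA is copied, and give mRNA that ends in a stem-loop in place of a poly(A) tail. The factor SLBP binds that stem-loop, and NPAT gathers the transcription machinery at the clusters. The maker's labelling protocol for such arrays starts from poly(A) tails, so histone transcripts without a tail are copied poorly. Many copies of a class are near-identical, and probe sets with IDs ending in _s_at or _x_at can read more than 1 of them.

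The arrays were Affymetrix PrimeView arrays of Y79, a human retinoblastoma cell line grown in RPMI medium. There were 3 arrays of cells given GNPs-HDM2 (gold nanoparticles conjugated with an HDM2 peptide), 3 of cells given GNPs (the gold nanoparticles without the peptide) and 3 of untreated Control cells. The source names of both treated groups spell the line Y97, while the characteristics of all 9 arrays say Y79. By its title the series deals with a conjugate against the binding of p53 to HDM2, the human MDM2 protein, which marks p53 for breakdown, and the comparison made here is how the histone classes stood with the conjugate, set beside other genes of DNA copying. The sources used here give no dose and no time of treatment, nor whether a group's 3 arrays came from separate cultures. The p-values thus rest on array-to-array spread alone, and that spread may be technical. In such bulk samples a change in the share of cells in S phase and a change in histone RNA per cell cannot be told apart. Histone RNA with and without a poly(A) tail was not measured apart either.

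Each deposited value is a log2 level relative to a baseline of its own probe set, so it can be compared between arrays but not between genes. A trace of the level itself was left in the step size of the stored numbers, and from it probe sets were called dim, middle or bright. By that trace 57 histone probe sets were dim, 45 middle and 8 bright. The GNPs-HDM2 arrays differed from the rest across the whole array. Their median bright probe set lay at -1.30, -1.80 and -0.29 in replicates 1 to 3, and their median dim probe set at 0.56, 0.73 and 0.19. All 6 other arrays had both medians between -0.08 and 0.09, so replicate 3 was the GNPs-HDM2 array nearest to them. The hybridization controls, foreign transcripts added to the labelled sample, averaged 1.95 ± 0.38 on GNPs-HDM2 arrays, -0.14 ± 0.40 on GNPs arrays and -0.44 ± 0.07 on Control arrays (SD, n = 3). The array's poly-A controls (27 probe sets) averaged 1.16 ± 0.39, -0.17 ± 0.29 and -0.55 ± 0.60 in the same order (SD, n = 3). The part of these shifts in the histone differences was not tested, and counts are therefore also given after each array was centred within the level classes. The retinal transcription factors CRX and OTX2 had all their probe sets in the bright class, whereas all 6 probe sets of the blood cell gene PTPRC were dim.

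Histone promoters carry short shared elements, and 59 of the 64 genes had a promoter entry in RefSeq (build GRCh38.p14, 250 bases before to 50 after the start). The TATA element TATAAA was found on either strand in 62.7% of them, against 11.5% of 35116 promoters of all genes. The CCAAT element was found in 86.4%, against 34.6% of all. The octamer ATTTGCAT, the binding sequence of POU2F1, was found in 78.6% of H2A and 77.8% of H2B promoters, in 12.5% of H3 and in 0 of the 9 H1 and 0 of the 10 H4 promoters, against 1.77% of all. None of these matches overlapped another in the promoters shown. In 11 pairs of an H2A and an H2B gene read in opposite directions, the starts lie 194 to 248 bases apart. The windows of such a pair share DNA, so the same match can count for both genes and both classes. Below, 4 promoters are shown 5′ to 3′, with these 3 motifs on either strand in capitals. H2AC8 and H2AC20 are shown since each window also spans the start of an H2B gene read the other way, H3C10 and H4C12 since they were among the largest rises of their classes.
H2AC8 (chr6:26216671-26216970, plus strand): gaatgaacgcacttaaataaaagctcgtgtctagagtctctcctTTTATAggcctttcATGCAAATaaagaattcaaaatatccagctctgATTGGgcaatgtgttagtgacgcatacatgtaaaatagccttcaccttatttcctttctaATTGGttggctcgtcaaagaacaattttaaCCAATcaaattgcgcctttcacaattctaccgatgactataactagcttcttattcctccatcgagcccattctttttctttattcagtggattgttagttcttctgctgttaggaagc
H2AC20 (chr1:149886668-149886967, plus strand): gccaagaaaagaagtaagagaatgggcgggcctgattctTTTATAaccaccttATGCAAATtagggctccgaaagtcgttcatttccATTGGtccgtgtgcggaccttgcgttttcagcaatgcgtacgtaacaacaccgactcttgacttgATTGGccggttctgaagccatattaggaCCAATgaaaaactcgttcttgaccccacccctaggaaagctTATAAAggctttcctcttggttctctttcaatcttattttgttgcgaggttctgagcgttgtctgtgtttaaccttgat
H3C10 (chr6:27809801-27810100, plus strand): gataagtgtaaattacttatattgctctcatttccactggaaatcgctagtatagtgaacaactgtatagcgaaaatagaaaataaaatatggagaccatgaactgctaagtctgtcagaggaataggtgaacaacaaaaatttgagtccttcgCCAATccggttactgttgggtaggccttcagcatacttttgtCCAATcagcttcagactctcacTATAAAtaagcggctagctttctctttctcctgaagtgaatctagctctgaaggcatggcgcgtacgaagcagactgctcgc
H4C12 (chr6:27831511-27831810, minus strand): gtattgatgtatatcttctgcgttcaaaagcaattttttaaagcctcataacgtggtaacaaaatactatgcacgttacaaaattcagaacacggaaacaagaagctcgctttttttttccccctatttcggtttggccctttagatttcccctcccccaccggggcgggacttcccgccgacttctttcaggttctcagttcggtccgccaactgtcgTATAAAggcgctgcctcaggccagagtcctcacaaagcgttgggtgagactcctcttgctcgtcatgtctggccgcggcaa
Both H2A windows hold the octamer, 3 CCAAT elements and TATA on the strand of the H2B neighbour, and that of H2AC20 also holds TATAAA on its own strand. The H3C10 window holds 2 CCAAT elements and TATA, and that of H4C12 holds TATA alone.

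With GNPs-HDM2, histone genes mostly lay above untreated cells. Of 64 genes, 29 were higher and 1, H4C3, was lower against Control cells by limma's moderated test over all genes (adjusted p under 0.05, n = 3 arrays a group), and 34 did not pass. Over all 18132 genes 33.1% were called higher and 25.1% lower. The median difference of the histone genes was 0.49, against 0.25 for all genes. Of the 110 probe sets, 41 were higher and 2 lower, where the whole array had 24.9% and 23.7%. In 30 histone genes all 3 GNPs-HDM2 values lay above all 3 Control values and in 2 genes, H2BC17 and H4C3, below (36.0% and 23.9% of all genes).

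Some genes of every class were called higher, where 33.1% of all genes were higher and 25.1% lower. In H2B 9 of 18 genes rose (median 0.56) and in H3 5 of 10 (median 0.49). In H4 5 of 12 rose and 1 fell (median 0.45). In H1 4 of 9 rose (median 0.40) and in H2A 6 of 15 (median 0.41), shares not far from that of all genes. The H1 genes called higher were H1-1, H1-2 and the germ-cell genes H1-7 and H1-8. Class counts without the germ-cell genes were not taken. The class medians lay close together, and no class was tested against another. Centring within level classes brought the median of all genes to 0.07 and that of the histone genes to 0.27, with 16 genes higher and 3 lower (23.6% and 21.7% of all genes). It left H3 at 0.43, H4 at 0.32, H1 at 0.11 and H2B at 0.07, and turned the H2A median to -0.08. Quantile normalization left 8 genes higher and 0 lower (3.15% and 7.47% of all genes), with a median of 0.39 against 0.10 for all genes, and kept every class median above 0.

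**Figure D1:**
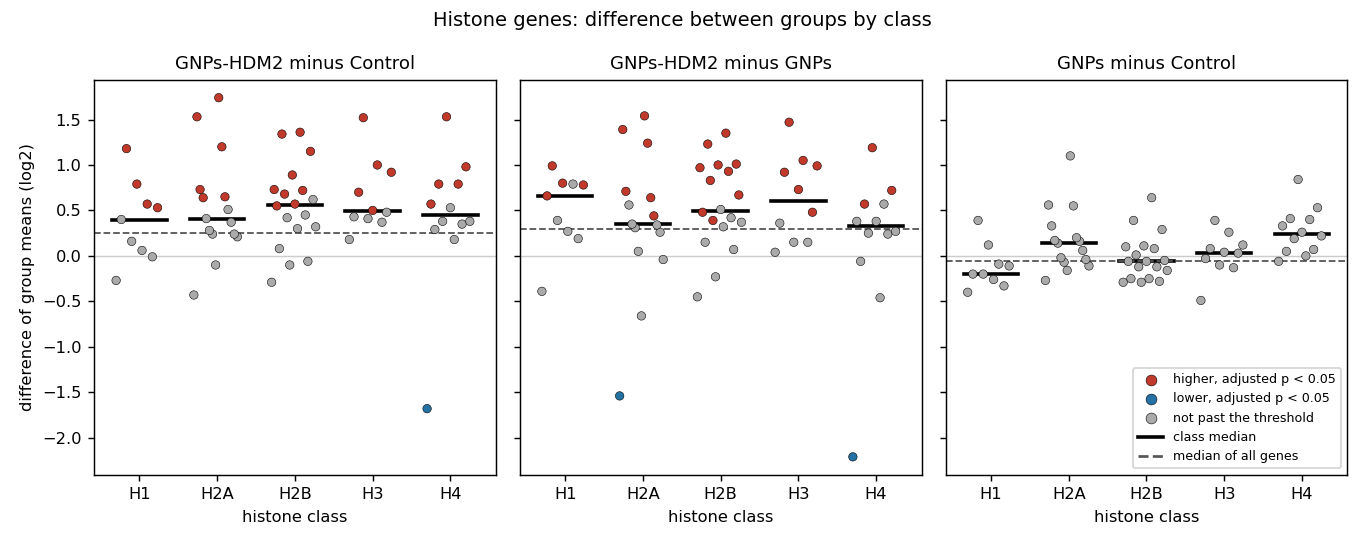
Difference of group means (log2) of each of the 64 histone genes by class, for GNPs-HDM2 minus Control (left), GNPs-HDM2 minus GNPs (middle) and GNPs minus Control (right); colours give the limma call, bars the class medians and the dashed line the median of all genes. In the left panel the class medians lie between 0.40 and 0.56, above the 0.25 of all genes, and H4C3 is the only gene called lower. Centred within level classes, the H2A median turns to -0.08.

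The share of probe sets that rose differed between the level classes. Among the 45 middle probe sets 20 were higher and 0 lower, where all middle probe sets had 25.7% higher and 25.4% lower. Among the 8 bright ones 4 were higher and 2 lower, where all bright ones had 6.85% and 61.3%. Among the 57 dim ones 17 were higher (29.8%) and 0 lower, close to the 33.5% and 0.981% of all dim probe sets. After centring within the classes, 20 middle histone probe sets were higher and 0 lower, where all middle ones had 23.9% and 26.5%. Of the bright ones 5 were higher and 1 lower (27.3% and 28.5% of all bright), and of the dim ones 1 was higher and 3 lower (8.55% and 5.81% of all dim). Of the 29 genes, 15 were higher in both settings. The share of dim histone probe sets called higher was thus near the background as deposited and below it after centring, while that of the middle ones was above it in both settings.

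**Figure D2:**
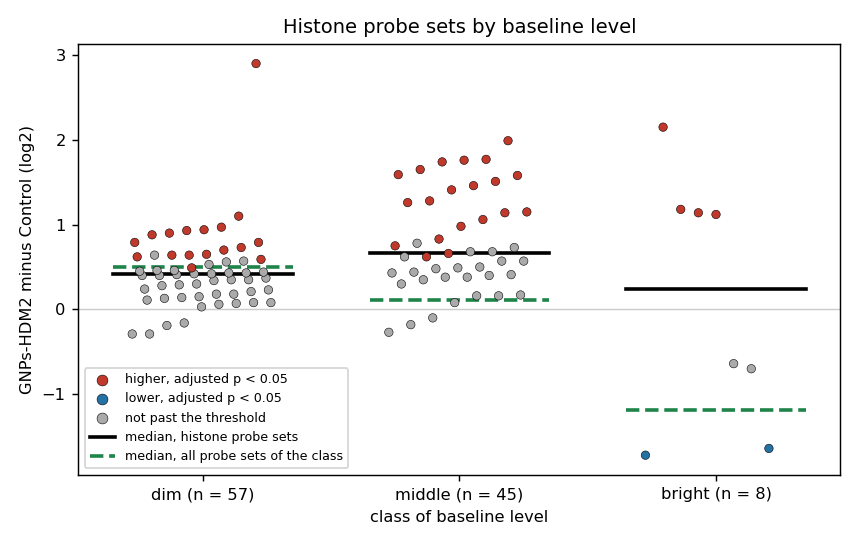
GNPs-HDM2 minus Control (log2) for the 110 histone probe sets, split by class of baseline level; solid bars are medians of the histone probe sets and dashed bars medians of all probe sets of the class. Dim histone probe sets had a median of 0.42 against 0.50 for all dim ones, middle ones 0.66 against 0.11 and bright ones 0.24 against -1.19.

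Leaving out 1 array moved these counts. The share of all genes called was not taken for these or later counts without 1 array. Whether the whole array moved alike was not tested. Without Control replicate 2 the higher genes were 17 and without Control replicate 3 they were 18. Without GNPs-HDM2 replicate 3, the array nearest to the other groups, 34 genes were higher and 2 lower, and of the probe sets 53 were higher and 4 lower. Without Control replicate 2 the probe sets called higher were 25.

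Among the H2A genes, H2AC1 and H2AC8 had the largest rises. H2AC1, which codes for a testis H2A, had values of 1.97, 2.23 and 0.91 on GNPs-HDM2 arrays, 0.41, 0.08 and 0.00 on GNPs arrays and -0.11, 0.00 and 0.00 on Control arrays. The GNPs-HDM2 values lay apart from the other 6, lowest in replicate 3. The difference from Control was 1.74 ± 0.30 (SE), a 3.35-fold rise (limma adjusted p = 0.00284). H2AC8, a core histone gene of the chromosome 6 cluster whose promoter is shown above, had 1.23, 0.50 and 2.22 on GNPs-HDM2 arrays, 0.01, -0.23 and 0.02 on GNPs arrays and 0.25, -0.26 and -0.62 on Control arrays. Here replicate 3 was the highest of the GNPs-HDM2 arrays and replicate 2 the lowest. The difference from Control was 1.53 ± 0.38, or 2.89-fold (adjusted p = 0.00989), but quantile normalization took it out of the called genes (1.59). H2AC15, chosen after its values were seen, shows how probe sets of 1 gene can part. Its probe set 11759219_at had 1.59, 2.19 and 3.17 on GNPs-HDM2 arrays against -0.48, -0.62 and -0.66 on Control arrays, a rise of 2.90 ± 0.35 (adjusted p = 0.000883). Its probe set 11759220_at differed by 0.03 ± 0.18 (adjusted p = 0.897). The mean of its 3 probe sets rose by 1.20 ± 0.17 (adjusted p = 0.00153), and was 0.68 and not called when the dim probe sets were left out.

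Among the H2B genes, H2BC26 and H2BC5 had the largest rises. H2BC26, one of the 6 genes on chromosome 1, had 0.94, 1.77 and 0.81 on GNPs-HDM2 arrays, -0.27, -0.18 and -0.08 on GNPs arrays and -0.49, -0.11 and 0.05 on Control arrays. All GNPs-HDM2 values lay above the rest, with a difference from Control of 1.36 ± 0.25 (2.56-fold, limma adjusted p = 0.00369). H2BC5 had 1.0, 0.16 and 1.87 on GNPs-HDM2 arrays, -0.25, -0.36 and -0.03 on GNPs arrays and 0.02, -0.62 and -0.38 on Control arrays. As in H2AC8, replicate 3 was highest and replicate 2 only just above the other groups. The difference from Control was 1.34 ± 0.36 (2.53-fold, limma adjusted p = 0.0135). It was no longer called without Control replicate 2 (1.19) or after quantile normalization (1.51). The 3 probe sets of H2BC5 ran from 0.78 to 1.77 against Control. The lowest, 11724021_at, was not called, and its groups overlapped.

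H3 and H4 code for the most conserved core histones. H3C10, whose promoter is printed above, had 1.41, 0.78 and 1.83 on GNPs-HDM2 arrays, -0.04, -0.21 and -0.15 on GNPs arrays and -0.31, -0.16 and -0.07 on Control arrays. The groups did not overlap, and the difference from Control was 1.52 ± 0.24 (2.86-fold, limma adjusted p = 0.00219). Its bright probe set 11732103_s_at, of the kind that can read several copies, differed by 2.15 ± 0.34, and its dim probe set 11759076_at by 0.88 ± 0.20. With level classes centred and only the dim one kept, the rise was 0.40 and not called. H3C7 had 0.80, 1.66 and 0.46 on GNPs-HDM2 arrays, 0.52, -0.29 and -0.06 on GNPs arrays and -0.03, -0.12 and 0.08 on Control arrays. GNPs-HDM2 and Control did not overlap, but GNPs replicate 1 lay inside the GNPs-HDM2 range. The difference from Control was 1.0 ± 0.31 (adjusted p = 0.0211). It was not called without Control replicate 1 (1.0), 2 (0.95) or 3 (1.05), without GNPs-HDM2 replicate 2 (0.65) or after quantile normalization (0.61). Of the H3C7 probe sets, 11734573_at rose by 1.51 ± 0.37 and was called. The other, 11734574_x_at, stood at 0.49 ± 0.31 and was not called, with overlapping groups.

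H4C12, with a TATA element and no CCAAT in the window above, had 1.47, 1.48 and 0.75 on GNPs-HDM2 arrays, 0.08, -0.04 and 0.09 on GNPs arrays and -0.79, -0.18 and 0.10 on Control arrays. It rose by 1.53 ± 0.26 against Control (2.88-fold, limma adjusted p = 0.00284). H4C9 had 0.63, 0.62 and 0.82 on GNPs-HDM2 arrays, 0.19, 0.00 and 0.17 on GNPs arrays and -0.35, -0.22 and -0.29 on Control arrays. The 3 groups were each tight and did not overlap, with a difference between GNPs-HDM2 and Control of 0.98 ± 0.14 (adjusted p = 0.00177), or 1.52 after centring within level classes.

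H4C3 moved the other way. It had -2.07, -2.43 and -0.90 on GNPs-HDM2 arrays, 0.44, 0.35 and 0.44 on GNPs arrays and -0.31, -0.38 and 0.34 on Control arrays. All GNPs-HDM2 values were below the other 6, and replicate 3 was again nearest to them. The difference from Control was -1.68 ± 0.35, a value 0.312 times that of Control (limma adjusted p = 0.00546). Both its probe sets were bright and of the kinds that can read several copies, 11726245_s_at at -1.72 and 11726246_x_at at -1.64, whereas the median of all bright probe sets was -1.19. After centring within level classes H4C3 was still lower by the same test, at -0.54 (adjusted p = 0.0347), but quantile normalization left it at -0.46 and not called.

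**Figure D3:**
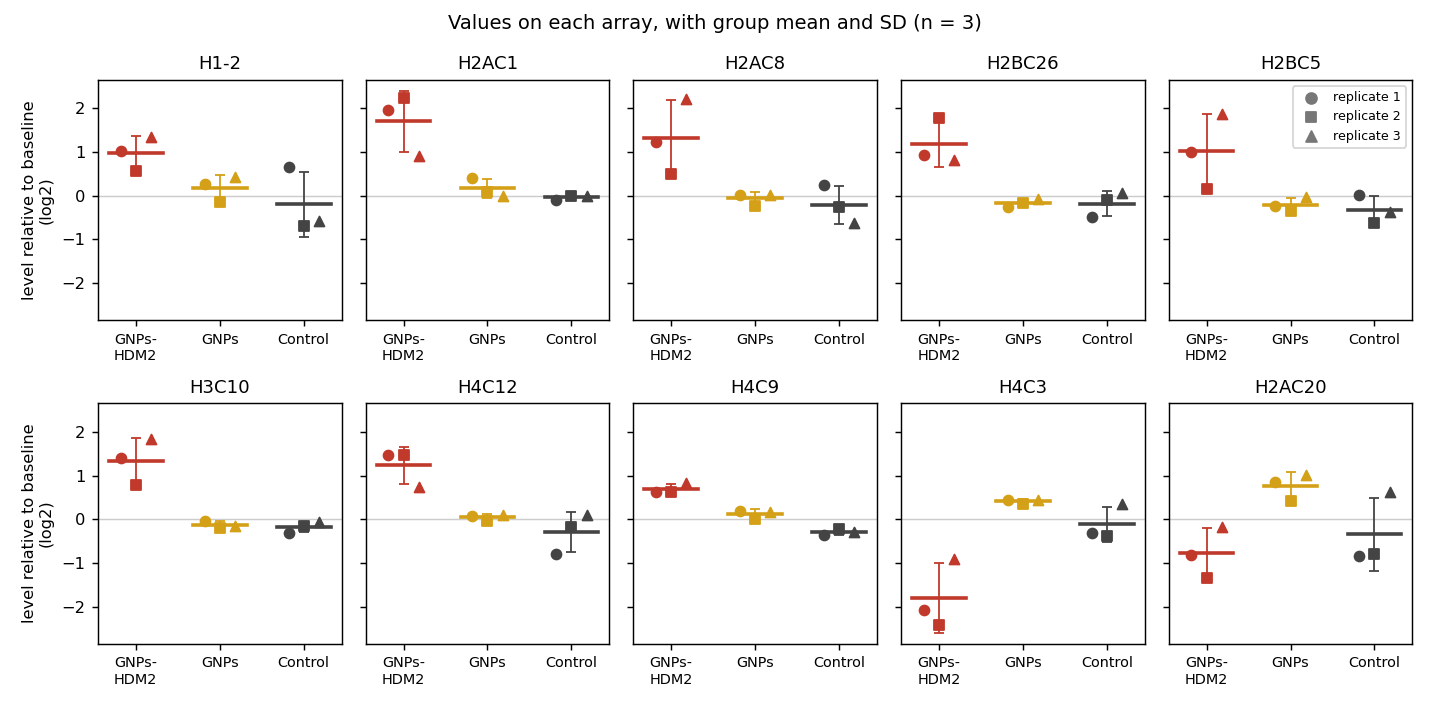
Values on each array (log2, relative to the baseline of the probe sets) of 10 histone genes, with GNPs-HDM2 at the left, GNPs in the middle and Control at the right of each panel; symbols mark the replicate, bars the mean and SD (n = 3). In H2AC8, H2BC5 and H3C10 the highest GNPs-HDM2 value is that of replicate 3, in H2AC1 and H2BC26 that of replicate 2, and in H4C3 all GNPs-HDM2 values lie below the other groups.

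Among the linker histones 4 of 9 rose, where 33.1% of all genes were called higher. H1-8, the linker histone of oocytes, had 0.68, 1.30 and 0.54 on GNPs-HDM2 arrays, 0.02, -0.33 and -0.14 on GNPs arrays and 0.03, 0.09 and 0.02 on Control arrays. The GNPs-HDM2 values lay apart, with a difference from Control of 0.79 ± 0.21 (limma adjusted p = 0.012), which was 0.31 and not called after centring within level classes and 0.27 and not called after quantile normalization. H1-1 differed by 0.57 ± 0.22 (adjusted p = 0.047), a call that 17 of the alternatives ended and 2 kept. H1-2, a widely expressed linker histone chosen after its values were seen, had 1.01, 0.56 and 1.34 on GNPs-HDM2 arrays, 0.26, -0.14 and 0.42 on GNPs arrays and 0.66, -0.69 and -0.58 on Control arrays. Control replicate 1 lay inside the GNPs-HDM2 range, and the difference was 1.18 ± 0.35 (adjusted p = 0.019). H1-2 was not called without Control replicate 2 (0.93), Control replicate 3 (0.99) or GNPs-HDM2 replicate 1 (1.16), nor after quantile normalization (1.27), and was 2.32 and called after centring within level classes. H1-10, the gene not tied to replication, averaged 0.19 ± 0.23 on GNPs-HDM2 arrays, -0.01 ± 0.10 on GNPs arrays and 0.20 ± 0.14 on Control arrays (SD, n = 3). Its 2 probe sets differed in sign against Control, 11758725_at at 0.62 ± 0.20 (adjusted p = 0.0271) and the bright 11715564_s_at at -0.64 ± 0.28 (adjusted p = 0.0834). The difference of its mean, -0.01 ± 0.17, turned to 0.54 and was called after centring within level classes.

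Over all 64 histone genes the highest of the GNPs-HDM2 arrays was replicate 3 in 43.8%, replicate 2 in 34.4% and replicate 1 in 21.9%, against 37.5%, 40.6% and 21.9% of all 18132 genes. Among the 29 histone genes called higher, 12 (41.4%) were highest in replicate 2 and as many in replicate 3, the last among them H1-2, H2AC8, H2BC5, H2BC8, H3C10 and H4C9. Of all 6006 genes called higher, 64.4% were highest in replicate 2, the array with the largest shift of the dim and bright medians, and 246 (4.1%) in replicate 3. The contrast in replicate 3 was thus wide among the called genes and small over all genes, and neither it nor its cause was tested. With level classes centred, the histone genes had medians of 0.12, -0.12 and 0.25 on GNPs-HDM2 replicates 1 to 3, against -0.05, -0.15 and 0.02 on the Control arrays.

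**Figure D4:**
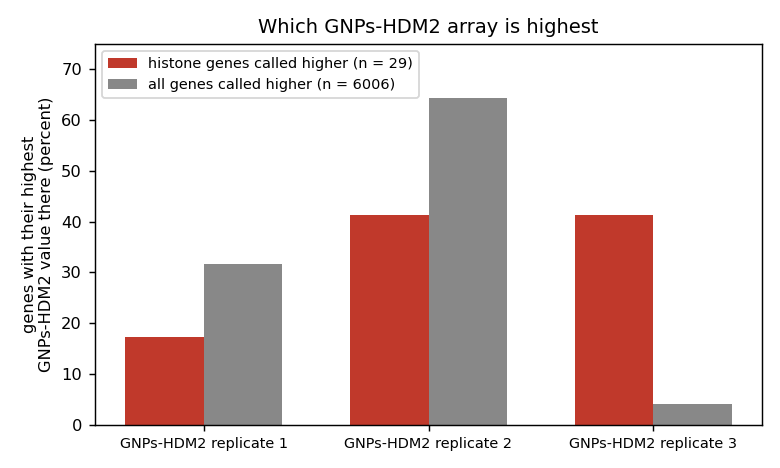
Percent of genes called higher with GNPs-HDM2 than in Control whose highest GNPs-HDM2 value was in replicate 1, 2 or 3, for the 29 histone genes (red) and all 6006 genes (grey). Replicates 2 and 3 were each highest in 41.4% of these histone genes, against 64.4% and 4.1% of all genes called higher; without selection by call, replicate 3 was highest in 43.8% of histone genes and 37.5% of all genes.

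Where a gene had more than 1 probe set, these mostly pointed the same way. Of 32 such genes, 29 had all probe sets on 1 side of 0 against Control, and the median range between probe sets of a gene was 0.38. H2AC15 had the widest range, from 0.03 to 2.90. H2BC21, a gene named after its values were seen, followed with 0.13 to 1.76. Which probe set of such a gene reads it better was not tested. Without the probe sets ending in _s_at and _x_at, 55 histone probe sets ending in _at and 5 ending in _a_at were left. Of these, 24 were higher against Control (26.6% of all such probe sets) and 0 lower (20.6% of all such). The only probe sets called lower in the main fit, both of H4C3, carry the removed endings. The 0 lower is thus not a result about the other histone genes.

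By position, and with 33.1% of all genes called higher and 25.1% lower, rises were found in every chromosome group. Of the 54 genes on chromosome 6, 22 were higher and 1 lower (median 0.44), of the 6 on chromosome 1, 4 were higher (median 0.70), and of the 4 elsewhere 3 were higher (median 0.66). Member genes formed 13 pairs with starts within 1000 bases that are read in opposite directions, 11 of them H2A with H2B. H2BC7 enters both a pair with H2AC7 and a pair with H3C4, each 223 bases apart, so the pairs are not all separate. In 3 pairs both genes were higher, in 6 pairs 1 was, and in 4 pairs neither was. H2AC8 and H2BC8, whose starts lie 233 bases apart, both rose, by 1.53 and 1.15. H2AC20 and H2BC21, with starts 236 bases apart and the other pair of the promoters shown, did not move together: H2BC21 was higher at 0.68 ± 0.21 (limma adjusted p = 0.0217) while H2AC20 stood at -0.43 ± 0.41 (adjusted p = 0.369). The H2BC21 call was lost under 8 alternatives, among them without Control replicate 2 (0.67), Control replicate 3 (0.46) or GNPs-HDM2 replicate 1 (0.65). As to promoter letters, 10 of 26 genes with the octamer rose (median 0.42) and 16 of 33 without it (median 0.53). A match in DNA shared by the windows of a pair counts for both genes. With CCAAT 24 of 51 rose (median 0.51) and without it 2 of 8 (median 0.38), where 33.1% of all genes were higher. These letters in a window are a description and not sites of binding.

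GNPs without the peptide changed no histone gene past the threshold. Against Control, 0 of the 64 genes and 0 of the 110 probe sets were called in either direction by limma, where 0.0221% of all genes and 0.00811% of all probe sets were called, all of them higher. At an unadjusted p under 0.05 there were 6 histone genes and 11 probe sets. The share of all genes at that threshold was not taken, so these counts are not read as an excess. The lowest adjusted p of a histone gene was 0.864. The median difference was 0.04 over the histone genes, -0.20 in H1, 0.14 in H2A, -0.06 in H2B, 0.04 in H3 and 0.24 in H4. The spread of the GNPs-HDM2 arrays entered this fit too: the median SD within a group was 0.474 for GNPs-HDM2, 0.116 for GNPs and 0.181 for Control. Estimated weights per array, which let groups differ in spread, called 11 histone genes higher and 7 lower (15.9% and 18.3% of all genes), and quantile normalization called 8 higher and 3 lower (6.97% and 8.37%).

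The highest and lowest genes of each class show what lay behind these medians, none of them past the threshold. H2AC20, a core histone gene of chromosome 1, had 0.86, 0.41 and 1.01 on GNPs arrays against -0.85, -0.80 and 0.62 on Control arrays, a difference of 1.10 ± 0.41. Control replicate 3 lay apart from the other Control arrays and inside the GNPs range. H4C8 had 0.18, 0.07 and 0.05 on GNPs arrays against -1.57, -0.72 and 0.09 on Control arrays, with the same Control array nearest to the GNPs values. Its difference was 0.84 ± 0.35, and 0.42 without Control replicate 1. H2BC8 differed by 0.64 ± 0.23, with no overlap of the groups, H1-2 by 0.39 ± 0.35 (0.82, 0.14 and 0.20 without Control replicate 1, 2 and 3) and H3C6 by 0.39 ± 0.18. At the low end H3C12 differed by -0.49 ± 0.18, again with no overlap, H1-6 by -0.40 ± 0.21 (-0.26 without Control replicate 2, -0.24 without GNPs replicate 1), H2BC14 by -0.29 ± 0.25, H2AC16 by -0.27 ± 0.19 and H4C4 by -0.06 ± 0.15. In 5 histone genes all GNPs values lay above all Control values and in 9 below, against 12.4% and 21.5% of all genes. Array weights called H2AC20, H4C8, H2BC8 and H1-2 higher and H3C12 and H1-6 lower.

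Set against GNPs, the histone genes were called higher at about the share of all genes. By limma 29 of 64 (45.3%) were higher and 2 lower, where 43.2% of all genes were called higher and 29.1% lower, with a median of 0.43 against 0.30 for all genes. Of the probe sets, 49 were higher and 5 lower (36.3% and 28.3% of all). Centred within level classes, 18 genes were higher and 6 lower (30.9% and 26.5% of all), and the histone median was 0.15, though that of H2A turned to -0.13. Quantile normalization left 15 higher and 2 lower (27.9% and 23.1% of all). Both comparisons use the same GNPs-HDM2 arrays, and 23 genes were higher in both. In 32 genes all GNPs-HDM2 values lay above all GNPs values and in 5 below, against 45.9% and 30.5% of all genes. By class, 10 H2B, 6 H3, 6 H2A, 4 H1 and 3 H4 genes were higher, and the H2A gene H2AC20 and the H4 gene H4C3 were lower. By level, 24 of the 57 dim probe sets were higher and 1 lower (51.9% and 2.2% of all dim), 22 of the 45 middle ones higher and 0 lower (35.6% and 31.8%), and 3 of the 8 bright ones higher and 4 lower (9.54% and 67.3%). Without GNPs-HDM2 replicate 3 the lower genes were 4, and without GNPs replicate 1 the higher probe sets were 32.

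Most of the genes with the largest rises over GNPs were those described against Control: H2AC1 at 1.54 ± 0.30, H2AC8 at 1.39 ± 0.38, H2BC26 at 1.35 ± 0.25, H2BC5 at 1.23 ± 0.36, H3C10 at 1.47 ± 0.24, H4C12 at 1.19 ± 0.26 and H1-8 at 0.99 ± 0.21, all called. Leaving out GNPs-HDM2 replicate 3 brought H2BC5 to 0.80, still called, and quantile normalization ended the calls of H2AC8 (1.14) and H4C12 (0.63). H3C8, a core H3 gene, had 0.81, 1.05 and 0.79 on GNPs-HDM2 arrays, -0.03, -0.34 and -0.13 on GNPs arrays and -0.09, 0.00 and -0.03 on Control arrays. Its mean rose by 1.05 ± 0.15 over GNPs (limma adjusted p = 0.000836). Its 4 probe sets parted, from 0.55 to 1.53 over GNPs, all called. Against Control they ran from 0.16 to 1.59, with 2 called. H1-6, the testis linker histone, differed by 0.80 ± 0.21 (adjusted p = 0.00781) and H4C13 by 0.72 ± 0.20 (adjusted p = 0.00991), but neither stayed called after centring within level classes (0.24 and 0.16). H4C3 fell by 2.21 ± 0.35 (adjusted p = 0.00112), and H2AC20, at -0.81, -1.34 and -0.18 on GNPs-HDM2 arrays, fell by 1.54 ± 0.41 (adjusted p = 0.00849). H1-10 was the only gene with probe sets called in opposite directions against GNPs, 11758725_at at 1.14 ± 0.20 and 11715564_s_at at -0.75 ± 0.28 (adjusted p = 0.00166 and 0.0392), and its mean differed by 0.19 ± 0.17 (adjusted p = 0.307).

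Most genes listed for histone mRNA were lower with GNPs-HDM2 in the values as deposited. The list also holds genes not particular to histone mRNA, among them CCNE1, CCNE2, CCNA2, CDK2 and UPF1. Of these, CCNE1, CCNE2 and CCNA2 were called lower. Of 19 measured genes for transcription and processing of histone mRNA, 13 were lower and 1 higher against Control by limma over all genes (25.1% and 33.1% of all genes), with a median of -0.88. After quantile normalization 3 were lower and 0 higher (7.47% and 3.15% of all), with a median of -0.17. SLBP, the stem-loop binding protein, had -2.78, -2.62 and -1.24 on GNPs-HDM2 arrays, 0.15, 0.13 and 0.04 on GNPs arrays and -0.29, -0.13 and 0.15 on Control arrays, with no overlap. It fell by 2.12 ± 0.35 against Control (adjusted p = 0.00244), and by 0.98 after centring within level classes. NPAT fell by 1.42 ± 0.28 and ERI1, the exonuclease that trims the histone stem-loop, by 2.18 ± 0.43 (adjusted p = 0.00411 and 0.00423), both no longer called after quantile normalization (-0.59 and -0.60). CPSF2, a subunit of the complex that cleaves pre-mRNA, fell by 2.29 ± 0.25 (adjusted p = 0.000725), and SYMPK, the scaffold of that complex, rose by 0.51 ± 0.15 (adjusted p = 0.0172), which was lost without Control replicate 3 (0.45) and after quantile normalization (0.31).

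Other genes of this list were less clear. CASP8AP2, a protein of the histone locus body, had -2.13, -3.65 and -0.60 on GNPs-HDM2 arrays against -0.56, 0.00 and -0.21 on Control arrays. It fell by 1.87 ± 0.59 (limma adjusted p = 0.0227). It was not called without Control replicate 2 (-1.74), Control replicate 3 (-1.84) or GNPs-HDM2 replicate 1 (-1.87), and was -1.10, still called, without GNPs-HDM2 replicate 2. LSM10, of the U7 particle that guides cleavage of histone mRNA, fell by 0.84 ± 0.29 (adjusted p = 0.0325), but the call was lost without any 1 Control array (-0.94 to -0.73) and without GNPs-HDM2 replicate 1 (-0.65) or 2 (-0.66), and centring within level classes turned it to 0.30. LSM11, of the same particle, stood at 0.12 ± 0.17, ZNF473, which works with U7, at -0.35 ± 0.16 and HINFP, an activator of H4 genes, at -0.53 ± 0.25, none called (adjusted p = 0.553, 0.0774 and 0.0907). HINFP was called lower without GNPs-HDM2 replicate 3 (-0.80) and stood at -0.24 without replicate 2. ZNF473 was called lower without Control replicate 1 (-0.46). LSM11 stood at 0.28 without Control replicate 1 and -0.01 without Control replicate 3. Against GNPs, CCNE2, a cyclin of S-phase entry, was among the firmest falls of this list at -2.48 ± 0.31 (adjusted p = 0.00052).

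Most histone chaperones and most genes of DNA copying fell as well, where 25.1% of all genes were lower and 33.1% higher. Of 20 chaperone genes 13 were lower and 1 higher (median -1.29), and of 43 measured genes of DNA replication and S phase 32 were lower and 1 higher (median -1.22). ASF1A, a chaperone of H3 and H4, fell by 2.23 ± 0.24 and ANP32E, which takes H2A.Z off DNA, by 2.58 ± 0.34, while CABIN1, of the H3.3 deposition complex, rose by 0.87 ± 0.20 (limma adjusted p = 0.000725, 0.00126 and 0.0071). After quantile normalization ASF1A was at -0.85 and not called, and after centring within level classes ANP32E was at -1.67, still called. HJURP, the chaperone of the centromere histone, fell by 1.86 ± 0.25 against GNPs (adjusted p = 0.000696). FEN1, which trims the flaps between newly made DNA pieces, fell by 3.75 ± 0.40 and GINS3, of the replicative helicase, by 2.85 ± 0.38 (adjusted p = 0.000725 and 0.00125), the call of GINS3 being lost after quantile normalization (-0.90). The 1 rise among them, MCM5 of the same helicase at 0.42 ± 0.16 (adjusted p = 0.0445), was lost under 15 alternatives, among them leaving out any Control array, any GNPs array or GNPs-HDM2 replicate 1, and kept under 5. The shift of the bright probe sets ran the same way, and its part in these falls was not tested. Centred within level classes, 22 of the replication genes were lower and 4 higher, 10 of the chaperones lower and 2 higher, and 10 of the processing genes lower and 1 higher, against 21.7% lower and 23.6% higher of all genes. After quantile normalization 9 of the replication genes were lower and 0 higher, and 7 of the chaperones lower and 1 higher, against 7.47% and 3.15% of all genes.

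Histone variants outside the symbol rule divided. Of 12 measured, 6 were lower and 3 higher (median -0.36), where 25.1% of all genes were lower and 33.1% higher. They were 5 lower and 2 higher when centred within level classes, and 4 lower and 1 higher after quantile normalization. CENPA, the centromere H3, had -1.62, -2.03 and -0.91 on GNPs-HDM2 arrays, 1.79, 1.74 and 1.58 on GNPs arrays and 0.54, 0.94 and 1.79 on Control arrays. It fell by 2.61 ± 0.34 against Control (limma adjusted p = 0.00121). H2AX, the variant phosphorylated at DNA breaks, fell by 1.85 ± 0.27 (adjusted p = 0.00173), and by 0.71 after centring within level classes. H2AJ rose by 0.78 ± 0.13 and H3-4, the testis H3, by 0.70 ± 0.17 (adjusted p = 0.00277 and 0.0101), the last lost after quantile normalization (0.37). Centring within level classes left H2AJ at 0.51, still called. Of the marker genes of other cells, 4 of 5 blood and 3 of 7 fibroblast genes were higher and 0 lower, and of 10 retinoblastoma and photoreceptor markers 4 were lower and 0 higher. Centred within level classes, 1 blood and 2 fibroblast markers were higher and 0 lower, and 3 retinoblastoma markers lower and 2 higher. After quantile normalization 0 blood and 0 fibroblast markers were called, and 4 retinoblastoma markers were lower. Blood markers had a median of 0.64 as deposited, 0.16 centred within level classes and 0.19 after quantile normalization, and their part in the histone rise was not tested.

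**Figure D5:**
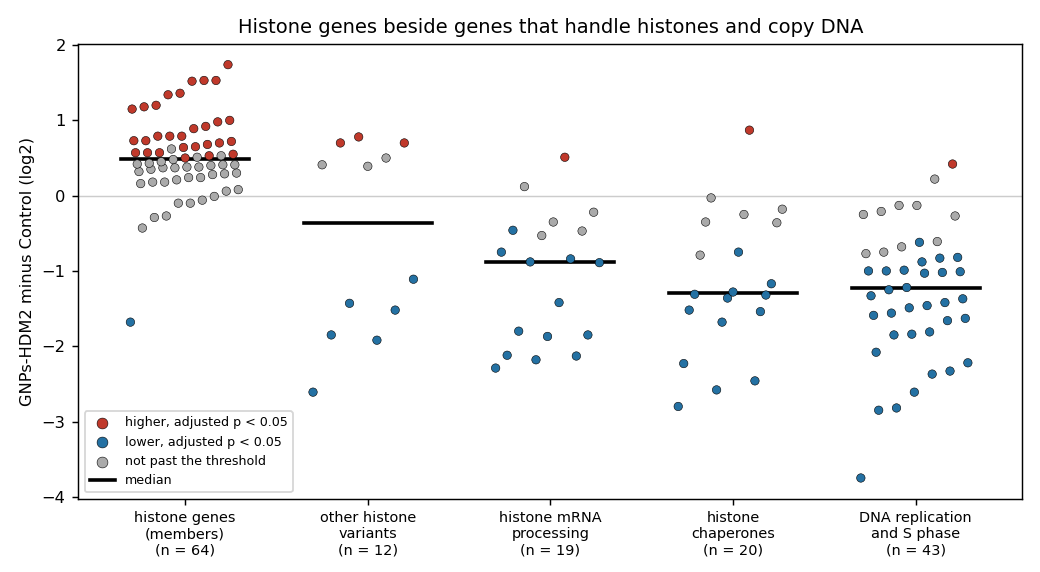
GNPs-HDM2 minus Control (log2) of the 64 histone genes and of the measured genes of 4 lists; each point is a gene, coloured by its limma call, and bars are medians. In the values as deposited the histone genes have a median of 0.49. Against this stand -0.36 for other histone variants, -0.88 for histone mRNA processing, -1.29 for histone chaperones and -1.22 for DNA replication and S phase. Centred within level classes, the medians of the 4 lists are -0.19, -0.72, -0.42 and -0.51 in that order. After quantile normalization they are -0.29, -0.17, -0.62 and -0.35.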

How the data were processed

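RNA of 9 array samples in 3 groups was measured on Affymetrix PrimeView arrays. Per the labels' protocols, biotin-labelled cRNA was made from total RNA. The authors deposited 1 table of values, taken as log2 against a baseline for each probe set and holding no absolute level. The log base, the baseline and the summarizing tool are not given in the sources used here. From 49395 probe sets the 102 array controls were dropped. Symbols come from the platform annotation, and probe sets with 1 symbol were averaged per gene. The step size of the stored numbers gave the level class, right for 96.0% of simulated probe sets.

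Group means were compared with limma 3.58.1 (lmFit, eBayes, 2-sided) under R 4.3.3, with data.table (version 1.17.8), all 9 arrays in 1 fit, and p-values were adjusted by Benjamini-Hochberg over all probe sets or all genes at 0.05. The fit was tested on simulated data. Errors after ± are standard errors unless SD is written. The arrays' number limits the precision. The pooled spread leaves the wider spread of GNPs-HDM2 arrays out of account.

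The members and the lists (other histone variants, histone mRNA transcription and processing, histone chaperones, DNA replication and S phase, and retinoblastoma, fibroblast and blood markers) were chosen with earlier results of these data known. Named were, per comparison and class, up to 2 largest rises and 2 largest falls among called genes whose groups did not overlap (with none called, the highest and the lowest), genes with probe sets called in opposite directions, H1-10, SLBP, NPAT, CASP8AP2, HINFP, LSM10, LSM11, ZNF473 and ERI1, and per list up to 2 genes each way of smallest adjusted p. The 12 probe sets left out by the rule were not analysed with the members. Alternatives are given in the closing section.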

Additional observations from a re-analysis of the deposited data

Results flagged for a closer look

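The symbol rule left out 12 histone probe sets, 9 for carrying several symbols and 3 for a pseudogene or an antisense RNA. In 5 of these the GNPs-HDM2 values lay above all Control values and the difference passed limma's threshold. Over all probe sets 24.9% were called higher, whether or not their groups overlapped. No comparison above uses these 12 probe sets. Also called higher, with overlapping groups, were 11728049_s_at (H4C12 and H4C11) at 1.36, 11753441_a_at (H1-9P) at 0.79 and 11759256_at (H4C14 and H4C15) at 0.75. The 2 bright probe sets shared by H2AC18 and H2AC19 were higher with GNPs-HDM2 by 1.18 (11742657_x_at) and 1.36 (11742688_s_at), and those shared by H3C14 and H3C15, both dim, by 1.26 (11759359_at) and 1.18 (11759360_x_at). The last 2 were not called after centring within level classes (0.78 and 0.70). Another dim probe set that also carries H3C14 and H3C15, together with H3-7 and H3C13, was lower by limma at -0.68 (11742410_s_at, adjusted p = 0.0461), though its groups overlapped, and was -1.16 and called lower after that centring. H1-10-AS1, antisense to H1-10, was higher by 1.36 (11757211_x_at).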

How the results depend on the processing

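Against Control with GNPs-HDM2, 29 histone genes were higher and 1 lower, and 41 probe sets higher and 2 lower. Higher genes and probe sets were 8 and 15 after quantile normalization, 16 and 26 centred within level classes, 18 and 24 with only middle and bright probe sets, 9 and 21 with at least a 2-fold change, and 15 and 15 with level-centred values without _s_at and _x_at probe sets, an alternative chosen after seeing the data. Higher genes were 19 with each array centred on its median. Higher probe sets were 23 with only the 2 groups in the fit, 69 with array weights and 24 without _s_at and _x_at probe sets. Such settings can change the calls of the whole array. Counts of this section that have no share of all genes or probe sets given above are not read as results about histone genes. Lower genes and probe sets were 0 and 0 after quantile normalization, 3 and 4 within level classes, and 0 and 0 without _s_at and _x_at. H4C3, the 1 gene called lower in the main fit, has only probe sets with these endings. Array weights gave 4 lower probe sets and median centring 2 lower genes. Leaving out 1 array gave 17 (without Control replicate 2) to 34 higher and 1 to 2 lower genes, and 25 to 53 higher and 2 to 4 lower probe sets.

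For GNPs against Control all counts were 0. Quantile normalization gave 8 higher and 3 lower genes and 8 higher and 6 lower probe sets, and array weights 11 and 7 genes and 16 and 8 probe sets. Leaving out any 1 array left 0.

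Against GNPs, 29 genes were higher and 2 lower, and 49 probe sets higher and 5 lower. Higher genes and probe sets were 15 and 24 after quantile normalization, 18 and 28 within level classes, 16 and 24 with only middle and bright probe sets, 10 and 22 with at least 2-fold, and 17 and 20 level-centred without _s_at and _x_at; without these alone, 32 probe sets were higher. Lower genes were 4 median-centred, 6 within level classes, 5 with array weights and 1 without _s_at and _x_at, where H4C3 drops out. Lower probe sets were 8 within level classes, 8 with array weights, 1 without _s_at and _x_at, 2 with those left out and level centring, and 3 with at least 2-fold. Leaving out 1 array gave 23 to 32 higher and 2 to 4 lower genes, and 32 (without GNPs replicate 1) to 54 higher and 3 to 6 lower probe sets, the lower ones 3 without GNPs-HDM2 replicate 1 or 2 or GNPs replicate 1 or 3.

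Directions turned in 5 genes, of which only LSM10 was called in the main fit. The turned value of H1-10 within level classes was called higher. Against Control, H1-10 turned to 0.54 within level classes, 0.62 without _s_at and _x_at or with the probe set of largest spread, 0.56 with both changes, 0.06 without Control replicate 2 and 0.10 without GNPs-HDM2 replicate 2 (-0.12 to 0.10 over all arrays left out). LSM10 turned to 0.05 after quantile normalization, 0.30 within level classes and 0.29 with _s_at and _x_at also left out. ZNF473 turned to 0.15, 0.20 and 0.20 under the same 3 settings. LSM11 turned to -0.04 median-centred, -0.13 with the probe set of largest spread and -0.01 without Control replicate 3 (-0.01 to 0.28 over all arrays left out). H4C4, GNPs against Control, turned to 0.03 under both level-centred settings. Of 1174 values of single genes under an alternative, 1044 kept direction and call, 91 lost the call, 22 gained one and 17 turned. The causes were not tested.

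Replicate numbers were not taken as pairs in the main fit. Correlations of deviations from the group mean lay between -0.033 and 0.231 for same-numbered arrays and between -0.219 and 0.181 for others. The highest, 0.231, was that of Control replicate 3 with GNPs-HDM2 replicate 3, so pairing was not shown to be absent. With the replicate number as a block, 28 genes were higher and 1 lower against Control, 29 and 2 against GNPs, and 0 for GNPs against Control.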
